A study of Mus musculus with 13 samples.

Results

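The 10 genes described here encode proteins of the lipid droplet surface and the enzymes that empty or fill the droplet. They are the perilipins Plin2, Plin3, Plin4 and Plin5, the lipase genes Pnpla2 and Lipe, the lipase regulators Abhd5 and G0s2, and the acyltransferases Dgat1 and Dgat2. They were taken by name, whatever their values, and make up 10 of the 21868 genes in the normalized count table. All 10 reached the mean normalized count of 10 asked of a tested gene, which 12303 genes reached.

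RNA was sequenced from the gastrocnemius, a calf muscle, of 13 obese male mice labelled C57BL/6 and given as C57BL/6N in the study's text. The mice arrived at 7 weeks of age, were fed a diet with 60 kcal% fat for 15 to 17 weeks and were then moved to standard chow, before treatment began and in every group. Vehicle-treated mice (n = 5, mice 1 to 5) received phosphate-buffered saline, semaglutide-treated mice (n = 5, mice 13 to 17) received 30 nM/kg/day of the GLP-1 receptor agonist semaglutide into the peritoneum, and semaglutide + ketone ester-treated mice (n = 3, mice 19, 21 and 22) also drank water with 0.114 g/mL of a ketone ester, each for 3 weeks. The labels add a placebo to the first 2 groups, all samples carry 1 batch, and no mouse received the ketone ester alone.

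Muscle fibres store part of their fatty acids as triacylglycerol in small droplets beside the mitochondria. A coat of perilipins controls the access of lipases to the droplet core. Adipose triglyceride lipase, the product of Pnpla2, takes the first fatty acid off, is activated by the protein encoded by Abhd5 (CGI-58) and is inhibited by the protein encoded by G0s2, and hormone-sensitive lipase, the product of Lipe, takes the next. The enzymes encoded by Dgat1 and Dgat2 catalyse the last step of triacylglycerol synthesis. White fat cells, which lie between and around the fibres of a dissected muscle, also express most of these genes, and in RNA from whole tissue fewer cells of a type and less RNA per cell cannot be told apart.

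In short, semaglutide-treated mice had less Abhd5 RNA than vehicle-treated mice. Only this one of the 10 genes passed limma's test in any pair of groups, with all mice as deposited and no weights or covariate. The Abhd5 call depended on the scaling, since with every mouse scaled to the same total Abhd5 did not pass and Pnpla2 did. By the study's own criterion across the 3 groups, which 16.1% of all genes met, Pnpla2 also passed and Abhd5 did not. Pnpla2, the lipase itself, was higher in 4 of the 5 semaglutide-treated mice than in any vehicle-treated mouse and lower in the fifth, mouse 13, than in any of them, and did not pass as deposited, but passed without mouse 13, with a weight per mouse and in both count models. The values of Plin2, Lipe and Dgat1 in the semaglutide group depended on mouse 16, which also had the most RNA of fat cell markers. Between semaglutide + ketone ester and semaglutide, or vehicle, none of the 10 passed the same limma test with all mice as deposited, against 20.7% and 0.366% of all genes. Against semaglutide, Pnpla2 passed, as lower, with a weight per mouse, with equal totals and in DESeq2. Pnpla2 and Plin4 passed, as lower, without mouse 13 and without mice 13 and 16 together. Plin2 passed, as lower, with fat cell markers as a covariate, but its estimate had the opposite sign without mouse 16.

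Between 15319471 and 23498162 reads were counted on genes per mouse. Semaglutide mouse 13 lay apart from its group on the first principal component of all tested genes (38.1% of the variance), with a score of -9.12 against 31.8 to 52.5 in the other 4 semaglutide-treated mice and -24.5 to -12.8 in vehicle-treated mice. The summed normalized counts of 7 adipocyte markers ran from 585 to 2685 in vehicle, from 151 to 11160 in semaglutide and from 1028 to 2068 in semaglutide + ketone ester, with vehicle mouse 5 and semaglutide mouse 16 at the top of their groups and mouse 14 lowest. None of the 7 was at 0 in all mice. The 6 muscle fibre markers, which check the labelled tissue, summed to between 1077827 and 2446040.

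The promoters of the lipase gene, of its activator and of its inhibitor are shown because Abhd5 gave the one call, Pnpla2 stood nearest to it and G0s2 encodes the known inhibitor of the same lipase. The sequences are from RefSeq (build GRCm38.p6) and run 5′ to 3′ on the gene's strand, from 250 bases before the start site to 50 after it. Capitals mark exact matches, on either strand, to the motifs searched, which were AGGTCA (nuclear receptors), GTAAACA (forkhead factors), AGAACA (glucocorticoid receptor), CACGTG (E-box) and TGACG (the core of cAMP response elements). All 10 genes but Dgat1 and Dgat2 had such a sequence.
Pnpla2: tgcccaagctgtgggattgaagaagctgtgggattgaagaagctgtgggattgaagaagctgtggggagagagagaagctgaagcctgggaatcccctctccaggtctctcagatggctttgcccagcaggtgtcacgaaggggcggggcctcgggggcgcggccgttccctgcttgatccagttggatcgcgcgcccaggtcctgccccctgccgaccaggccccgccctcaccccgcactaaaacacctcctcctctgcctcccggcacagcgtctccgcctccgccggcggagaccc
Abhd5: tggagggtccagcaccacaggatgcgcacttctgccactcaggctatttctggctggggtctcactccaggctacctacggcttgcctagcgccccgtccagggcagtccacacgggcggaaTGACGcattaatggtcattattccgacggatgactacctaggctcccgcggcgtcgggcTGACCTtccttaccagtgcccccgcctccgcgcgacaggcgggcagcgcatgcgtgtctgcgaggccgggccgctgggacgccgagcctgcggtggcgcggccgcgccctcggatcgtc
G0s2: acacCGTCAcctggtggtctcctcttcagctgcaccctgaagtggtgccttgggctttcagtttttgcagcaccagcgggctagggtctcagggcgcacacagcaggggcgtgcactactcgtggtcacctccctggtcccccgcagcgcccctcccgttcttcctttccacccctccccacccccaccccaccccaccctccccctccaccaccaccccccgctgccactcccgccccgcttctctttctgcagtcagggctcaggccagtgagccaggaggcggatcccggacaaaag
The Pnpla2 window lies at chr7:141454938-141455237 on the plus strand, the Abhd5 window at chr9:122351366-122351665 on the plus strand and the G0s2 window at chr1:193273139-193273438 on the minus strand. The genes themselves run over chr7:141455198-141460743, chr9:122351608-122381524 and chr1:193272161-193273217 in the GENCODE annotation of GRCm38, so that each window overlaps the start of its gene. No match stood in the Pnpla2 window. The Abhd5 window held TGACG at -128 and TGACCT, the reverse complement of AGGTCA, at -69, counted from the start site to the leftmost base. The G0s2 window held CGTCA, the reverse complement of TGACG, at -246. Of 32851 promoters of the same length, 20.8% held TGACG and 16.3% held AGGTCA, so that a match sets no gene apart. GTAAACA stood in 3.65% of them, AGAACA in 19% and CACGTG in 7.15%.

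Pnpla2 encodes the lipase that starts triacylglycerol breakdown. Its normalized counts were 5041, 4236, 3884, 5077 and 5611 in vehicle mice 1 to 5. In semaglutide mice 13 to 17 they were 3129, 8571, 10275, 14911 and 9926, and in semaglutide + ketone ester mice 19, 21 and 22 they were 5153, 4049 and 5428. Mouse 13 was thus below every vehicle-treated mouse, the other 4 semaglutide-treated mice were above every one of them, and all 3 semaglutide + ketone ester-treated mice lay within the vehicle range. The group means were 4770 ± 697 (SD, n = 5), 9362 ± 4226 (SD, n = 5) and 4877 ± 730 (SD, n = 3). The log2 fold change of semaglutide against vehicle, on the log2(normalized count + 1) scale used throughout, was 0.82 (SE 0.30, 95% confidence interval 0.18 to 1.47), with a p of 0.058 once adjusted for all 12303 genes (limma, Benjamini-Hochberg). The semaglutide + ketone ester group differed from semaglutide by -0.79 (SE 0.35, interval -1.53 to -0.04, adjusted p = 0.12, limma).

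Leaving out mouse 13 put Pnpla2 past the threshold in limma. Without it, the log2 fold change was 1.18 (SE 0.15, adjusted p = 4.4e-05, limma) for semaglutide against vehicle and -1.14 (SE 0.17, adjusted p = 0.0002, limma) for semaglutide + ketone ester against semaglutide. Without mouse 13, however, 37.4% and 33.4% of all genes passed in these comparisons, so that a call was also more common in general. Without mouse 16, the highest for Pnpla2, the values were 0.61 (SE 0.28, adjusted p = 0.13, limma) and -0.58 (SE 0.32, adjusted p = 0.22, limma). Count models on the whole reads gave Pnpla2 an adjusted p of 0.021 (edgeR) and 0.0027 (DESeq2) against vehicle with all mice included, at log2 fold changes of 0.99 and 0.98. Between semaglutide + ketone ester and semaglutide these tests gave 0.063 (edgeR) and 0.018 (DESeq2). With a weight per mouse in limma, under which 40.5% and 36.1% of all genes passed in these comparisons, Pnpla2 was at 1.03 (adjusted p = 0.00038) and -1.01 (adjusted p = 0.0016).

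Abhd5 encodes the protein that activates this lipase. Its normalized counts were 778, 738, 747, 681 and 754 in vehicle mice 1 to 5, and 641, 636, 622, 682 and 545 in semaglutide mice 13 to 17. They were 675, 620 and 597 in semaglutide + ketone ester mice. The semaglutide and vehicle ranges overlapped only through semaglutide mouse 16, at 682, and vehicle mouse 4, at 681, while every semaglutide + ketone ester-treated mouse was below every vehicle-treated mouse. Abhd5 fell by 0.24 on the log2 scale in semaglutide against vehicle (SE 0.08, interval -0.41 to -0.08, adjusted p = 0.028, limma), that is to 0.844 of the vehicle level. Against vehicle, semaglutide + ketone ester was at -0.23 (SE 0.09, adjusted p = 0.35, limma), and against semaglutide it was 0.01 (interval -0.17 to 0.20, adjusted p = 0.93, limma).

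The Abhd5 call was near the threshold. It was lost in 6 of the 13 fits that left out 1 mouse, without vehicle mouse 1, 2, 3 or 5 or semaglutide mouse 15 or 17, with adjusted p over all 13 between 0.018 and 0.077 (limma) and log2 fold changes between -0.28 and -0.20. Scaling every mouse to the same total moved the median of all genes to 0.17 in semaglutide against vehicle and to -0.24 in semaglutide + ketone ester against semaglutide. On that scale Abhd5 was at -0.07 in semaglutide against vehicle (adjusted p = 0.6, limma), below the median of all genes. Pnpla2 passed on that scale in its place, at 1.00 in semaglutide against vehicle (adjusted p = 0.03, limma) and at -1.03 between the ester-treated and the semaglutide group (adjusted p = 0.048, limma), where 35.2% and 35.4% of all genes passed.

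G0s2 encodes the inhibitor of the lipase and was among the most variable of the 10 genes. The normalized counts were 134, 111, 140, 137 and 331 in vehicle mice and 589, 489, 77.8, 274 and 82.8 in semaglutide mice 13 to 17. In semaglutide + ketone ester mice they were 293, 201 and 417. Semaglutide mice 13 and 14 were above, and mice 15 and 17 below, every vehicle-treated mouse, so that the semaglutide group spanned the other 2 groups. The log2 fold change was 0.49 for semaglutide (SE 0.52, adjusted p = 0.53, limma) and 0.89 for semaglutide + ketone ester (SE 0.60, interval -0.41 to 2.18, adjusted p = 0.7, limma), both against vehicle.

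Lipe encodes hormone-sensitive lipase. Its normalized counts were 596, 515, 590, 565 and 839 in vehicle mice, 257, 277, 573, 2051 and 712 in semaglutide mice 13 to 17, and 534, 548 and 460 in semaglutide + ketone ester mice. Mouse 16 was far above, and mice 13 and 14 below, every vehicle-treated mouse. The log2 fold change against vehicle was -0.10 (SE 0.42, adjusted p = 0.88, limma) for semaglutide. Without mouse 16 it was -0.57 (SE 0.26, adjusted p = 0.14, limma), and without mouse 13 it was 0.18 (adjusted p = 0.75, limma), so that its direction rested on these mice.

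**Figure D1:**
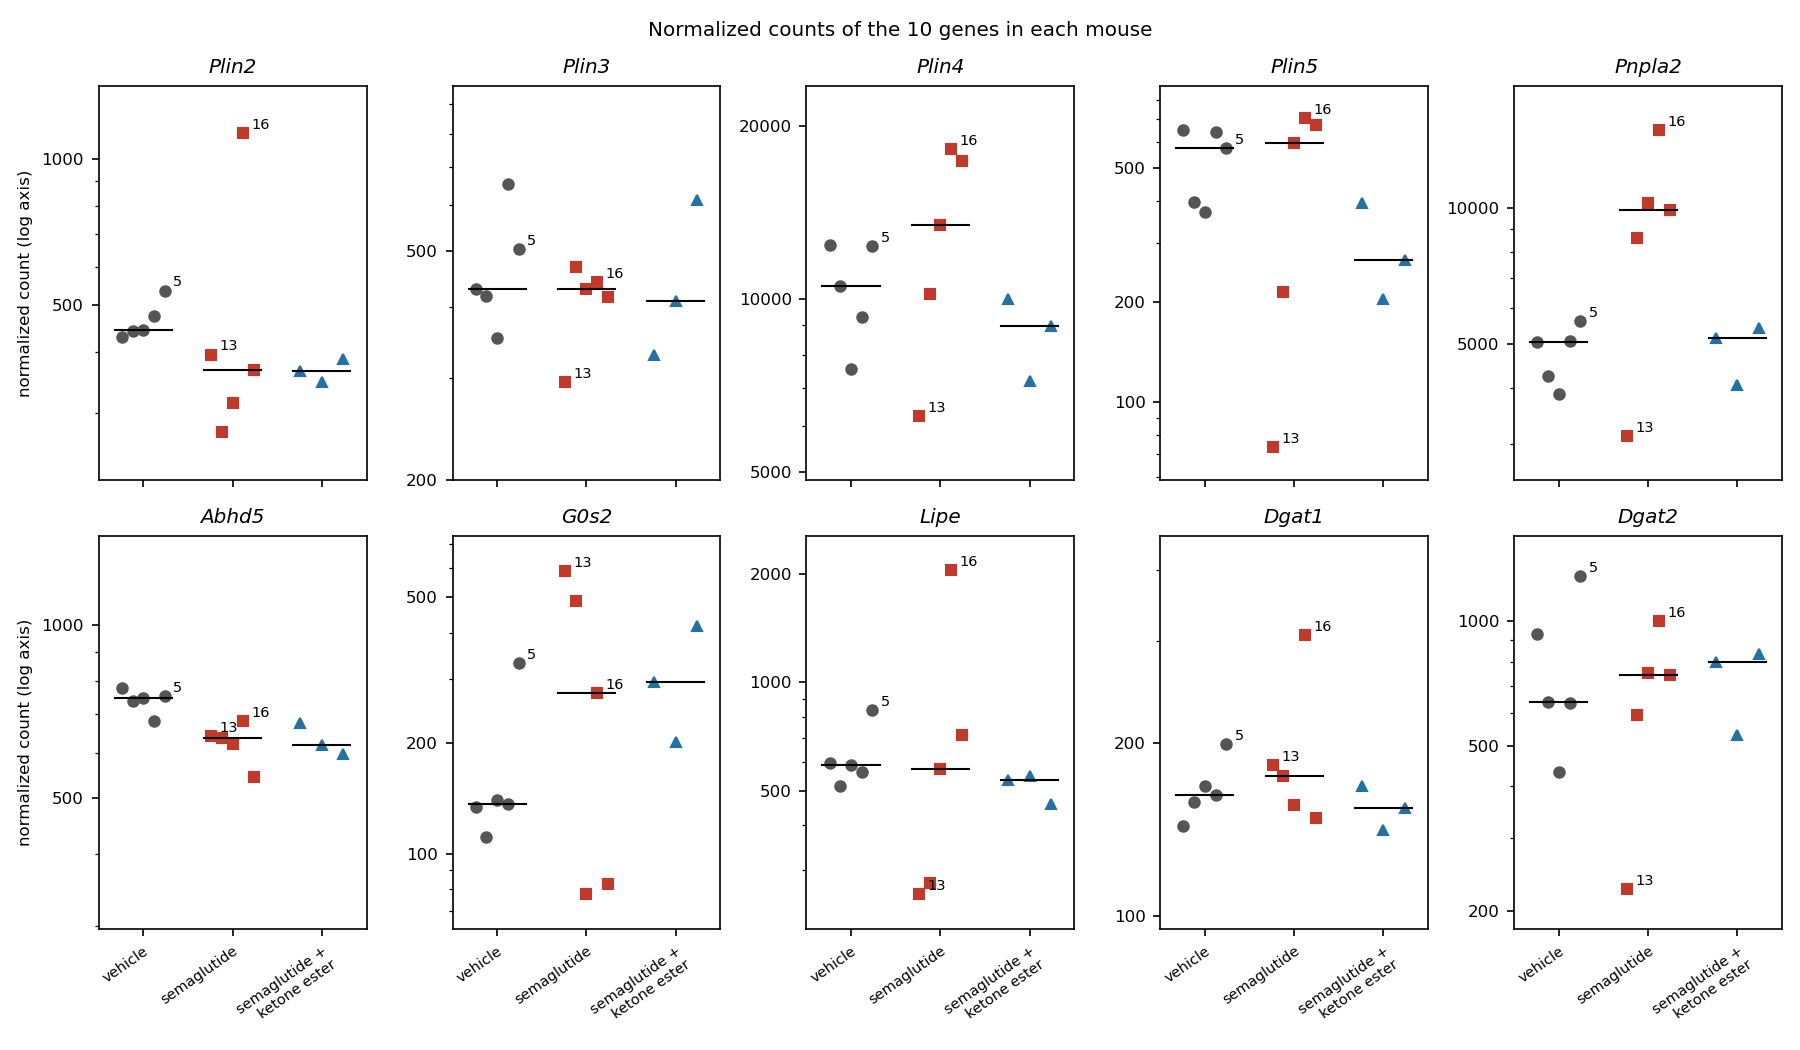
Normalized count (log axis) of each of the 10 genes in each mouse, with 5 vehicle, 5 semaglutide and 3 semaglutide + ketone ester mice, a line at each group's median, and mice 5, 13 and 16 numbered. Semaglutide mouse 13 is below all vehicle-treated mice for Plin2, Plin3, Plin4, Plin5, Pnpla2, Abhd5, Lipe and Dgat2, and mouse 16 is above all of them for Plin2, Plin4, Plin5, Pnpla2, Lipe and Dgat1.

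Ratios within a mouse do not depend on how the columns were scaled and are given as a description, with no test. The ratio of Pnpla2 to Abhd5, the lipase to its activator, was between 5.2 and 7.46 in vehicle-treated mice. It was 4.88 in semaglutide mouse 13 and between 13.5 and 21.9 in the other 4, and between 6.53 and 9.09 in semaglutide + ketone ester-treated mice. The ratio of Pnpla2 to G0s2, the lipase to its inhibitor, was between 17 and 38.3 in vehicle. In semaglutide it was 5.31 in mouse 13, 17.5 in mouse 14, 132 in mouse 15, 54.5 in mouse 16 and 120 in mouse 17, and in semaglutide + ketone ester it was between 13 and 20.2. The semaglutide group thus held both the lowest and the highest ratios of lipase to inhibitor. The ratio of Pnpla2 to Lipe was between 6.58 and 8.98 in vehicle, between 7.27 and 30.9 in semaglutide, where mouse 16 was the lowest, and between 7.38 and 11.8 in semaglutide + ketone ester.

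**Figure D2:**
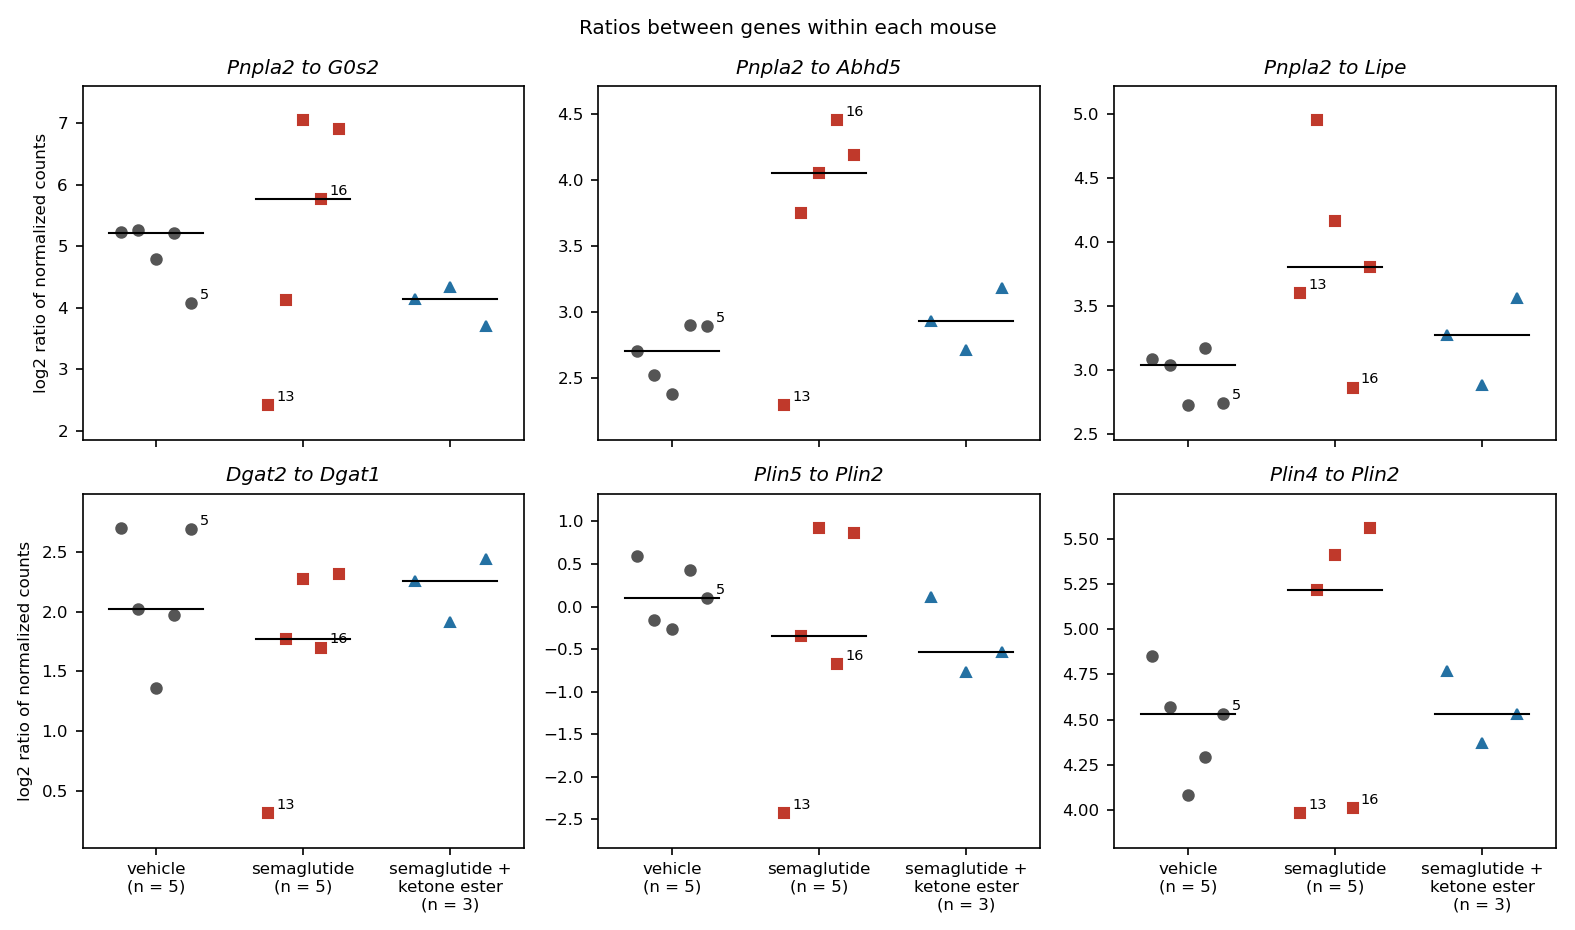
Log2 ratio of the normalized counts of 2 genes in each mouse, for the 6 ratios described, with a line at each group's median and mice 5, 13 and 16 numbered. In the panel of Pnpla2 to Abhd5, 4 semaglutide-treated mice are above all others and mouse 13 is the lowest of all.

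Of the perilipins, Plin2, the one most widely expressed outside fat, had normalized counts of 430, 443, 445, 476 and 536 in vehicle mice. In semaglutide mice 13 to 17 the counts were 396, 274, 315, 1128 and 368, and in semaglutide + ketone ester mice they were 366, 348 and 387. All mice given semaglutide, with or without the ester, were below every vehicle-treated mouse except mouse 16, which was above every one. With all mice, the log2 fold change of semaglutide against vehicle was -0.12 (SE 0.28, interval -0.72 to 0.48, adjusted p = 0.78, limma). Without mouse 16 it was -0.47 (SE 0.11, adjusted p = 0.0086, limma), in a fit in which 24.1% of all genes passed. For semaglutide + ketone ester against vehicle it was -0.34 (SE 0.32, adjusted p = 0.81, limma), although the groups did not overlap. Without mouse 16 the same difference was -0.34 with an SE of 0.12 (adjusted p = 0.27, limma), since all groups share 1 estimate of the spread.

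Plin5, the perilipin that ties droplets to mitochondria in oxidative tissue, had counts of 649, 396, 369, 641 and 575 in vehicle mice. In semaglutide mice 13 to 17 they were 73.5, 214, 595, 704 and 671, and in semaglutide + ketone ester mice they were 395, 204 and 266. Mice 13 and 14 were below all vehicle-treated mice and mice 16 and 17 above them. The log2 fold change against vehicle was -0.59 (SE 0.51, adjusted p = 0.42, limma) for semaglutide and -0.88 (SE 0.58, interval -2.13 to 0.37, adjusted p = 0.68, limma) for semaglutide + ketone ester. Without mouse 13 the first was -0.05.

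Plin4, a perilipin of muscle and fat, had the highest counts of the family. The values were 12404, 10521, 7552, 9283 and 12343 in vehicle mice, 6243, 10214, 13431, 18212 and 17393 in semaglutide mice 13 to 17, and 9988, 7181 and 8969 in semaglutide + ketone ester mice. Mice 15, 16 and 17 were above all vehicle-treated mice and mouse 13 below them. The log2 fold change of semaglutide against vehicle was 0.25 (SE 0.25, adjusted p = 0.49, limma), and without mouse 13 it was 0.49 (SE 0.18, adjusted p = 0.044, limma). Semaglutide + ketone ester against semaglutide was at -0.50 (SE 0.29, adjusted p = 0.23, limma), and without mouse 13 it was -0.74 (SE 0.21, adjusted p = 0.013, limma). In the fit without mouse 13, 37.4% and 33.4% of all genes passed in these comparisons. Without mouse 16, Plin4 was at 0.11 (SE 0.25, adjusted p = 0.78, limma) and -0.36 (SE 0.28, adjusted p = 0.39, limma). Without mice 13 and 16 together it was at 0.38 (SE 0.19, adjusted p = 0.12, limma) and -0.63 (SE 0.21, adjusted p = 0.031, limma). In that fit 37.0% and 33.5% of all genes passed.

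Plin3, a perilipin that moves between cytosol and droplet, had counts between 353 and 654 in vehicle, between 296 and 469 in semaglutide, where mouse 13 was the lowest, and between 329 and 612 in semaglutide + ketone ester. The 3 groups overlapped, and the log2 fold changes were -0.19 (SE 0.19) for semaglutide against vehicle and -0.08 (SE 0.22) for semaglutide + ketone ester against vehicle, with adjusted p of 0.5 and 0.95 (limma). Plin3, Plin4 and Plin5 all lie on the minus strand of chromosome 17, and 1798 bases separate Plin4 from Plin5. The ratio of Plin4 to Plin2 was between 17 and 28.8 in vehicle, between 15.8 and 47.2 in semaglutide and between 20.6 and 27.3 in semaglutide + ketone ester, and that of Plin5 to Plin2 was 0.186 in mouse 13 against 0.624 to 1.89 in the other semaglutide-treated mice.

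The acyltransferase genes gave no call. Dgat1, whose product also esterifies fatty acids taken up from outside, had counts of 143, 158, 168, 162 and 199 in vehicle, 183, 175, 156, 308 and 148 in semaglutide mice 13 to 17, and 168, 141 and 154 in semaglutide + ketone ester. Apart from mouse 16 the groups overlapped throughout, and the log2 fold change of semaglutide against vehicle was 0.18 (interval -0.19 to 0.54, adjusted p = 0.48, limma). Dgat2, whose product favours newly made fatty acids, had counts of 930, 639, 432, 635 and 1288 in vehicle, 226, 596, 750, 1003 and 743 in semaglutide mice 13 to 17, and 800, 531 and 833 in semaglutide + ketone ester. All but mouse 13 were within the vehicle range, and the log2 fold change was -0.30 (interval -1.05 to 0.46, adjusted p = 0.58, limma). The ratio of Dgat2 to Dgat1 was between 2.57 and 6.5 in vehicle, 1.24 in mouse 13, between 3.26 and 5.01 in the other semaglutide-treated mice and between 3.76 and 5.41 in semaglutide + ketone ester-treated mice.

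As a group, 1 of the 10 genes passed limma's test in semaglutide against vehicle, and it was lower. Of all genes tested, 26.5% passed, 12.5% higher and 13.9% lower. In edgeR and DESeq2, Pnpla2 passed as well, as higher, where 26.9% and 29.1% of all genes passed. At an unadjusted p under 0.05 stood 2 of the 10 and 38.9% of all genes. None of the 10 had ranges that did not overlap between these groups, against 14.7% of all genes. For semaglutide + ketone ester against semaglutide, 0 of the 10 passed in limma, against 20.7% of all genes, 10.0% higher and 10.7% lower. In edgeR 0 passed, against 20.8% of all genes, and in DESeq2 1 passed, against 23.9%. At an unadjusted p under 0.05 in limma stood 1 of the 10, against 34.8% of all genes. Non-overlapping ranges were found for 0 of the 10, against 20.1% of all genes. For semaglutide + ketone ester against vehicle, 0 passed in limma, against 0.366% of all genes, 0.0975% higher and 0.268% lower. In edgeR 0 passed, against 0.366% of all genes, and in DESeq2 0 passed, against 1.40%. At an unadjusted p under 0.05 in limma stood 1 of the 10, against 10.4% of all genes. In that comparison 2 of the 10, Plin2 and Abhd5, did not overlap, against 11.3% of all genes. Across the 3 groups together, limma's F test called Abhd5 alone (adjusted p = 0.046) among the 10, and 26.5% of all genes. It called 0 of the 10 without the filter on low values, with TMM factors, with the adipocyte covariate, without the variance trend, and in 9 of the 13 fits that left out 1 mouse (vehicle 1, 2, 3 or 5, semaglutide 14, 15 or 17, or semaglutide + ketone ester 21 or 22). The median log2 fold changes of the 10 were -0.11, -0.19 and -0.17 in the order of these comparisons, and those of all genes were -0.0029, -0.0002 and -0.0059. The comparisons share the semaglutide-treated or the vehicle-treated mice and are not independent.

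**Figure D3:**
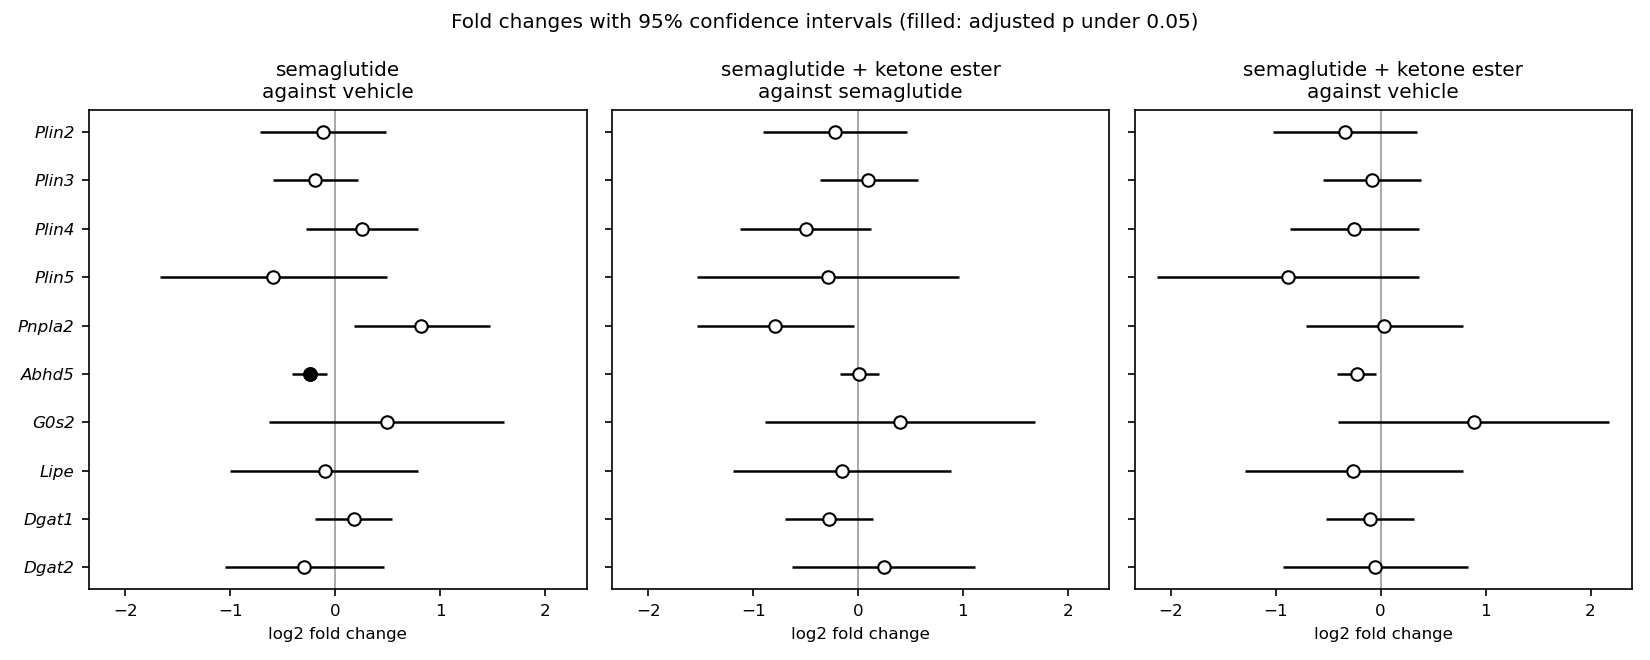
Log2 fold change of each of the 10 genes in the 3 comparisons, with bars for the 95% confidence interval from limma and a filled point where the adjusted p is under 0.05. Abhd5 in semaglutide against vehicle is the only filled point, and the intervals of Pnpla2 exclude 0 in both comparisons that involve the semaglutide group.

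**Figure D4:**
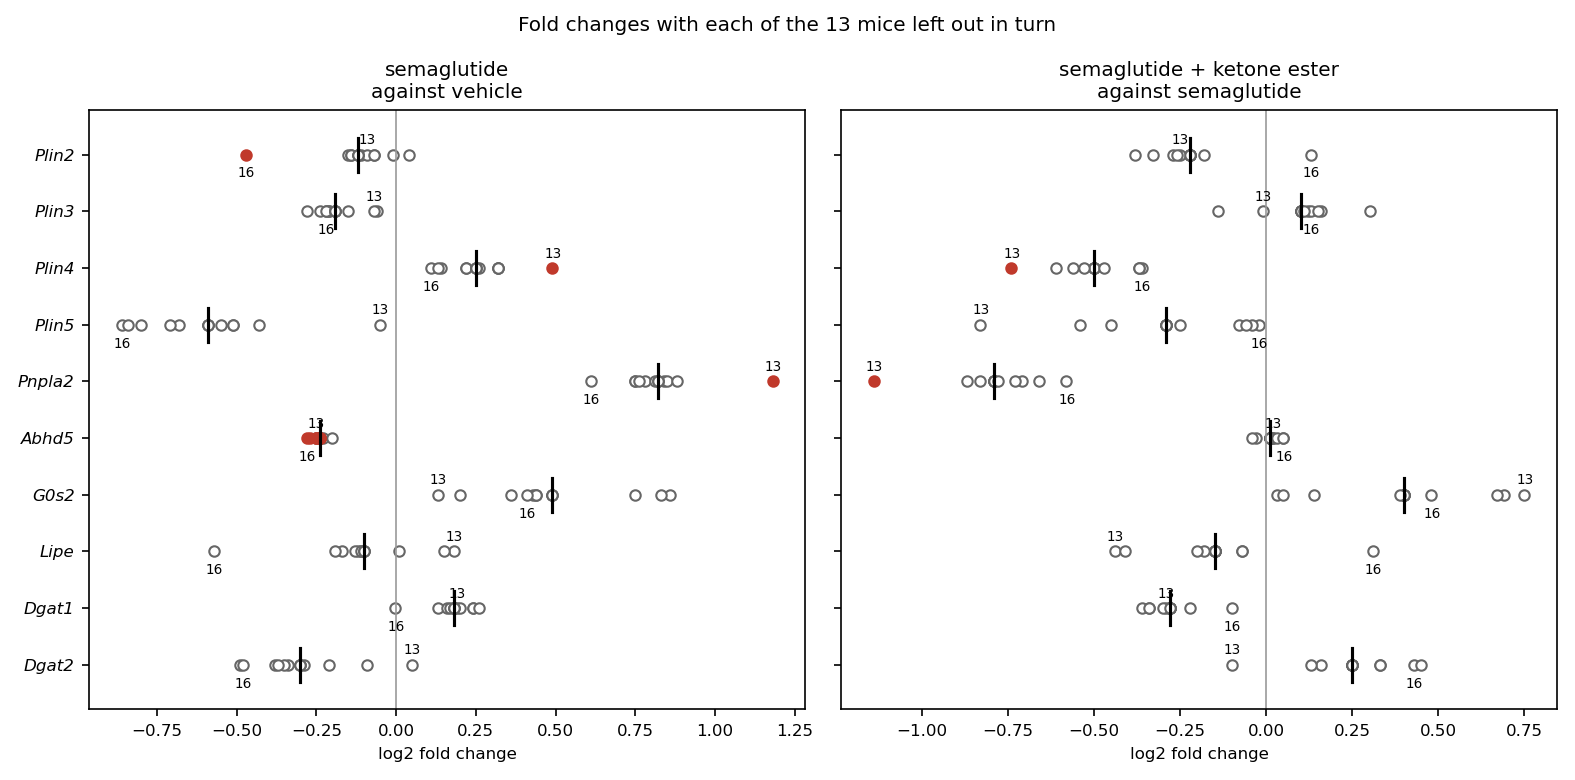
Log2 fold change of each gene with each of the 13 mice left out in turn (circles, filled in red where the adjusted p is under 0.05), beside the value with all mice (bar), for the comparisons that involve the semaglutide group. Numbers 13 and 16 mark the fits without those semaglutide mice, in which Pnpla2 and Plin4 (without 13) and Plin2 (without 16) pass in semaglutide against vehicle.

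Fat cell markers were high in some of the mice with high values of these genes, but not in all. Plin1, the perilipin of white fat cells, had normalized counts between 93.1 and 459 in vehicle, with mouse 5 the highest. In semaglutide it was 113 in mouse 13, 4.51 in mouse 14, 26.7 in mouse 15, 1126 in mouse 16 and 75.3 in mouse 17, and in semaglutide + ketone ester it was between 123 and 287. The 7 markers did not all move alike. Cfd was at 750, 104, 143, 4949 and 619 in semaglutide mice 13 to 17, against 143 to 458 in vehicle. Mouse 16 was the highest of all mice for each marker but Lep, which was at 211 there and at 451 in vehicle mouse 5. Mouse 16 also had the highest count of Plin2, Plin4, Plin5, Pnpla2, Lipe and Dgat1 of all mice, and mouse 5 had the highest of Plin2, Pnpla2, Lipe, Dgat1, G0s2 and Dgat2 in the vehicle group. Mouse 14, with the lowest markers, had the lowest Plin2 of all. Other mice went the other way. Semaglutide + ketone ester mouse 21, with a marker sum of 2068, had Plin2 at 348, below every vehicle-treated mouse, and the lowest Dgat1 of all, 141. Semaglutide mouse 13, with a marker sum of 1234, had the lowest Lipe, Plin4, Plin5, Dgat2 and Pnpla2 of all mice. Of the 7 markers, 0 passed the test in any of the 3 comparisons (limma), at medians of -0.39 for semaglutide against vehicle, 0.48 for semaglutide + ketone ester against semaglutide and 0.13 for semaglutide + ketone ester against vehicle on the log2 scale. Macrophage markers, 6 genes, summed to between 529 and 1594 in vehicle, between 710 and 2054 in semaglutide, with mouse 16 again the highest, and between 770 and 1425 in semaglutide + ketone ester. The 4 endothelial markers summed to between 3135 and 3741 in vehicle, between 3164 and 3599 in semaglutide and between 3389 and 3987 in semaglutide + ketone ester, and 2 of the 4 were called higher in semaglutide + ketone ester than in semaglutide (limma), as was 1 of 4 fibre type markers. Of the 6 muscle fibre markers, 1 was lower in semaglutide than in vehicle and 3 were higher in semaglutide + ketone ester than in semaglutide (limma), with sums of 1561652 to 1891799 in vehicle, 1077827 to 1835660 in semaglutide and 1982176 to 2446040 in semaglutide + ketone ester, and their part in the results was not tested.

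Pnpla2 was high in semaglutide mice 14 and 15, which had the lowest marker sums of all mice, 151 and 322. It was highest in mouse 16, which had the highest marker sum, 11160. With the mean level of the 7 markers as a covariate, a choice made after seeing the data, Pnpla2 was at 0.87 (adjusted p = 0.052), Abhd5 at -0.23 (adjusted p = 0.035), Plin2 at 0.05 (adjusted p = 0.8) and Lipe at 0.12 (adjusted p = 0.78) on the log2 scale for semaglutide against vehicle (limma). In semaglutide + ketone ester against semaglutide, Plin2 passed with this covariate, at -0.47 (adjusted p = 0.047, limma), where 21.7% of all genes passed. Without mouse 16 and with no covariate, the same difference had the opposite sign, at 0.13 (SE 0.12, adjusted p = 0.49, limma). With mice 5 and 16 left out together, also chosen after seeing the data, Pnpla2 was at 0.67 (adjusted p = 0.14), Abhd5 at -0.27 (adjusted p = 0.039) and Plin2 at -0.42 (adjusted p = 0.022) in limma. The part of fat cells in these and the other differences was not tested.

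**Figure D5:**
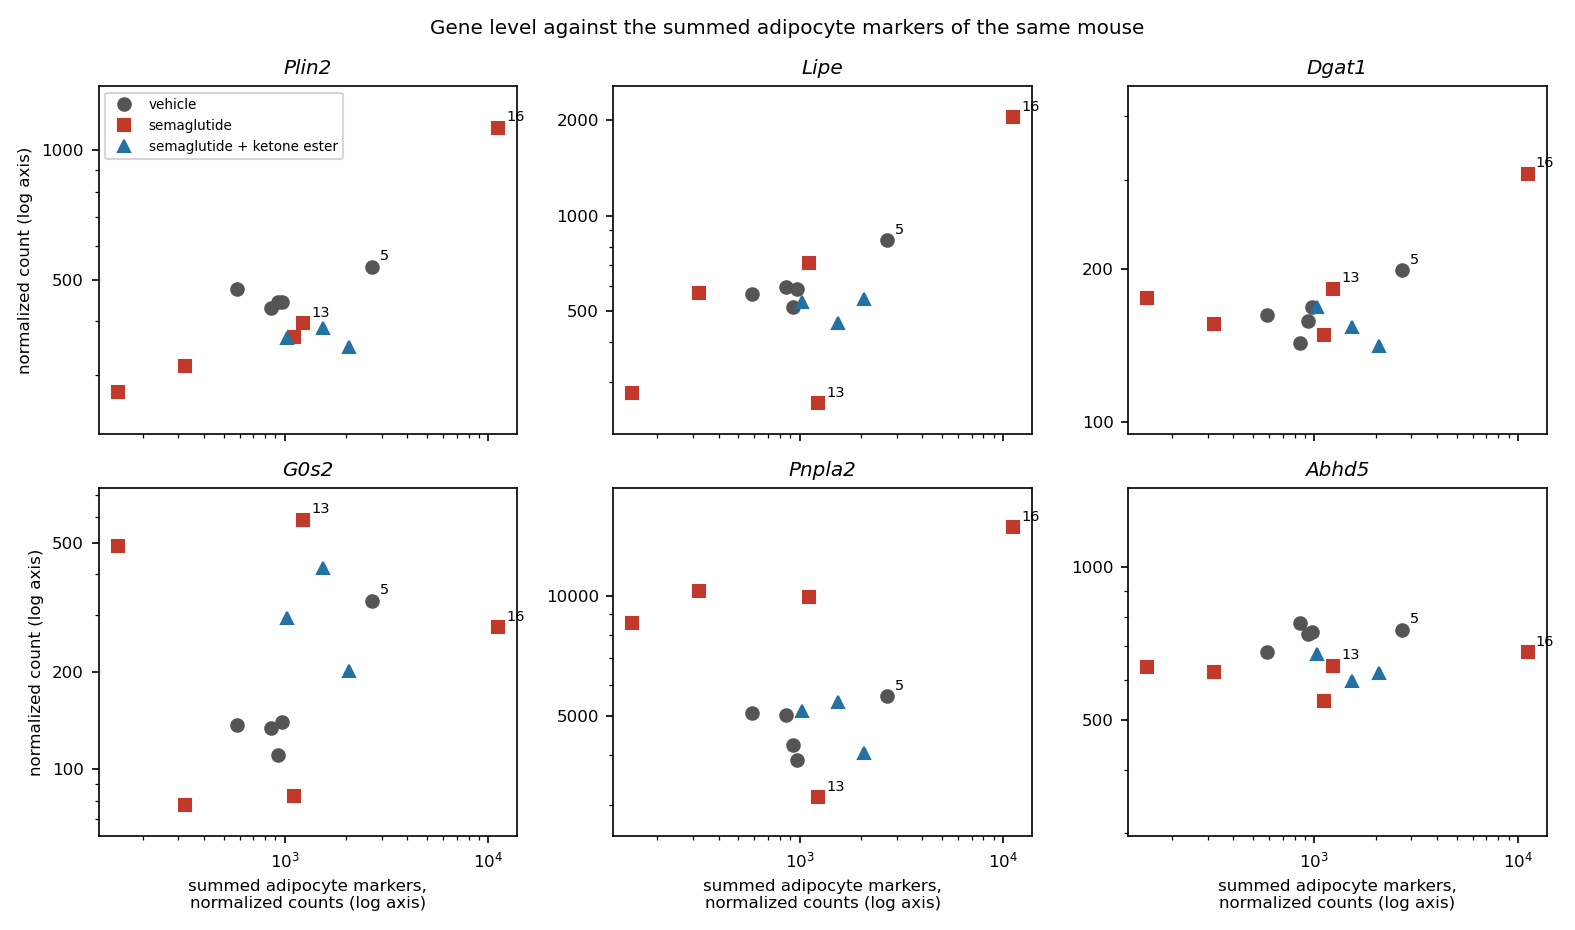
Normalized count of 6 of the genes (log axis) against the summed normalized counts of the 7 adipocyte markers in the same mouse (log axis), with symbols for the 3 groups and mice 5, 13 and 16 numbered. Mouse 16, at 11160 on the horizontal axis, is the highest mouse for Plin2, Lipe, Dgat1 and Pnpla2, and mouse 5, at 2685, is the next highest for Plin2, Lipe and Dgat1.

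Levels can be compared between genes only per length. Per kilobase of exon (GENCODE gene models on GRCm38), the normalized counts in vehicle were 1804 ± 359 (SD, n = 5) for Plin4 and 1579 ± 231 (SD, n = 5) for Pnpla2, whose ranges overlapped. Dgat2 (255 ± 108), Plin5 (252 ± 64.4) and G0s2 (196 ± 104) came next by their means, with ranges that overlapped each other. Plin2 (133 ± 12), Plin3 (124 ± 30.5), Abhd5 (124 ± 6.07) and Lipe (106 ± 21.4) followed, and Dgat1 was lowest at 54.3 ± 6.77 (SD, n = 5 for each). Neighbours in this order overlapped across these groups too, since G0s2 began at 127 and Dgat2 at 140 while Plin2 reached 153 and Plin3 reached 173, and G0s2 owed its mean to mouse 5, at 380. The range of Dgat1, 46.8 to 65.1, was clear of all others. In semaglutide-treated mice Pnpla2 had the highest mean per kilobase, 3100 ± 1399 (SD, n = 5), against 2267 ± 866 (SD, n = 5) for Plin4, with overlapping ranges. The annotation behind the counts is not given in the sources used here, so that these lengths are an approximation.

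Some of the genes share their place with another gene. Plin4 overlaps Hdgfl2, G0s2 overlaps Lamb3, and Abhd5 and Lipe overlap the antisense genes A730085K08Rik and 4732471J01Rik, each on the opposite strand. The libraries were stranded, but the strand setting of the counting is not given in the sources used here, so that reads of such pairs may not be fully separated. Hdgfl2 itself rose in semaglutide against vehicle by 0.45 on the log2 scale (adjusted p = 0.0018, limma), at a mean of 531 in vehicle against 10420 for Plin4. Lamb3, at a mean of 37.3 in vehicle, was at 0.01 (adjusted p = 0.99, limma).

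Of 44 tested genes of the same pathways, in 5 lists, 5 rose and 4 fell in semaglutide against vehicle. In semaglutide + ketone ester against semaglutide, 2 rose and 7 fell, and against vehicle 0 rose and 1 fell. Of all genes tested, 12.5% rose and 13.9% fell in semaglutide against vehicle. In semaglutide + ketone ester, 10.0% rose and 10.7% fell against semaglutide, and 0.0975% rose and 0.268% fell against vehicle. Among 11 tested genes of triacylglycerol synthesis, 1 rose and 1 fell under semaglutide. Lpin2, a phosphatidate phosphatase, rose by 0.47 on the log2 scale (SE 0.15, adjusted p = 0.036, limma), from a mean of 64.6 ± 4.2 (SD, n = 5) to 91.7 ± 24.2 (SD, n = 5). Gpam, the mitochondrial glycerol-3-phosphate acyltransferase, fell by 0.46 (SE 0.13, adjusted p = 0.017, limma), from 3672 ± 356 to 2707 ± 494 (SD, n = 5 each), and no semaglutide-treated mouse reached the lowest vehicle-treated mouse, 3347. Agpat3 and Lpin1 were lower in semaglutide + ketone ester than in semaglutide, by -0.57 (SE 0.14, adjusted p = 0.01) and -0.80 (SE 0.19, adjusted p = 0.0095, limma). Lpin1, the main muscle form, was at 8254 in semaglutide mouse 13 and between 13226 and 17370 in the other 4, against 9650 to 10602 in vehicle.

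Among 10 tested genes of droplet assembly and surface, 1 rose under semaglutide. Aup1, a ubiquitin-linked droplet protein, rose by 0.69 on the log2 scale (SE 0.10, adjusted p = 0.00033, limma) and was lower by -0.77 in semaglutide + ketone ester than in semaglutide (SE 0.12, adjusted p = 0.00083, limma). Its counts were between 1013 and 1286 in vehicle, between 1588 and 2147 in semaglutide and between 1006 and 1225 in semaglutide + ketone ester. The semaglutide range was thus clear of both others, mouse 13 included, at 1755. In semaglutide + ketone ester against semaglutide, Fitm1, a protein of droplet budding, was higher by 0.63 (adjusted p = 0.017) and Faf2 lower by -0.36 (adjusted p = 0.023, limma).

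Of 7 other lipid hydrolases, 1 rose under semaglutide. This was Abhd6, a monoacylglycerol lipase, at 0.44 (SE 0.12, adjusted p = 0.015, limma), from 138 ± 16 to 187 ± 20.9 (SD, n = 5 each). Ces1d, a carboxylesterase of fat and liver from a family of close copies, was higher by 1.46 in semaglutide + ketone ester than in semaglutide (SE 0.43, adjusted p = 0.027, limma). Mgll, which finishes the breakdown started by Pnpla2, was at -0.38 under semaglutide against vehicle (SE 0.15, adjusted p = 0.074, limma).

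Of 8 partners in fatty acid release and activation, 1 rose under semaglutide. Acot1, a cytosolic acyl-CoA thioesterase, was at 26.1 in semaglutide mouse 13 and at 128, 437, 560 and 622 in mice 14 to 17, against 24.1 to 68.7 in vehicle and 16.9 to 32.8 in semaglutide + ketone ester. Its log2 fold change was 2.33 (SE 0.68, adjusted p = 0.022) against vehicle and -3.16 for semaglutide + ketone ester against semaglutide (SE 0.79, adjusted p = 0.013, limma). Mouse 13 lay within the vehicle range and the other 4 above it. Acot1 shares most of its sequence with Acot2, which was at 0.16 (SE 0.67, adjusted p = 0.89, limma), and reads may be split between them.

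Of 8 transcriptional regulators known for these genes, 1 rose and 3 fell under semaglutide. Foxo1, a known activator of Pnpla2, fell by 1.03 on the log2 scale (SE 0.26, adjusted p = 0.0092, limma), from 1742 ± 725 to 813 ± 195 (SD, n = 5 each). It was lower again in semaglutide + ketone ester, at 389 ± 142 (SD, n = 3), by -1.09 against semaglutide (adjusted p = 0.019) and -2.12 against vehicle (SE 0.29, adjusted p = 0.0099, limma), the only one of the 44 genes to pass in the last comparison. Ppara, the fatty acid receptor, fell by 1.03 (SE 0.31, adjusted p = 0.024, limma) and Nr3c1, the glucocorticoid receptor, by 0.74 (SE 0.14, adjusted p = 0.0019, limma) in semaglutide against vehicle. Ppard, a relative of Ppara, rose by 0.47 (SE 0.10, adjusted p = 0.0037, limma) and was lower by -0.48 in semaglutide + ketone ester than in semaglutide (adjusted p = 0.0095, limma). Agpat3, Lpin1, Fitm1, Faf2, Ces1d, Mgll, Acot2 and Ppard were named here after their values were seen.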

How the data were processed

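Total RNA from frozen gastrocnemius was made into stranded mRNA libraries and sequenced as paired 59 bp reads. The authors aligned the reads to mm10 with DRAGEN, and the submitters' processing notes also name DESeq2. They deposited normalized counts per gene, a signal per gene with 1 column per mouse. The counting program and annotation are not given in the sources used here. Every deposited value was a whole multiple of 1 step per mouse (100% whole at a tolerance of 0.01), so that whole reads were recovered.

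Here log2(normalized count + 1) of the 12303 genes with a mean of at least 10 was fitted with limma 3.58.1 (R 4.3.3), with 1 mean per group over all 13 mice, a variance trend, two-sided p-values and Benjamini-Hochberg adjustment over all genes (threshold 0.05). Tests were planned as limma's moderated test, without saying whether the variance follows the mean level. The trend was chosen after both forms had been run, to match an earlier processing of these data. Fold changes understate those of low genes. Alternatives were other pseudocounts, filters and scalings, weights, edgeR 4.0.16 and DESeq2 1.42.0 on the recovered reads, the study's own criterion, and leaving out each mouse. P-values measure the spread between mice. Scripts were tested on simulated counts. The 10 genes and all lists were chosen with earlier results of these data known. All 10 genes are named. The plan for each list was to name at most the 3 with the largest change among those past the threshold in semaglutide against vehicle (if none passed there, in semaglutide + ketone ester against semaglutide). Agpat3, Lpin1, Fitm1, Faf2, Ces1d, Mgll, Acot2 and Ppard were named outside this plan, after their values were seen. Matches of genes to promoters were by symbol. Counting error covers only part of the error: 3 reads make up at most 1.96e-05% of a library.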

Additional observations from a re-analysis of the deposited data

Results flagged for a closer look

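Within groups of 5 mice, 34 tests looked for a mouse far from the rest (Dixon's criterion at 95%, on the log2 scale), and 4 were met, or 11.8%, where chance alone gives about 1 in 20. In the semaglutide group, mouse 16 stood far above the others for Plin2, at a normalized count of 1128, and for Dgat1, at 308. Its adipocyte marker sum, 11160, was the highest of all mice. In the same group, mouse 13 stood far below the others for Plin3, at 296. In the vehicle group, mouse 5 stood far above the others for G0s2, at 331, and had the highest adipocyte marker sum of its group, 2685. Groups of 3 mice were not tested.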

How the results depend on the processing

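Of 810 recomputed fold changes of the 10 genes, 741 kept their direction and side of the threshold, 19 passed it newly, 7 no longer passed and 43 changed sign. No value that changed sign was past the threshold in either fit, and the causes were not tested. The count of the 10 genes past the threshold, 1 in semaglutide against vehicle, was 2 with edgeR, with DESeq2, with a weight per mouse and without mice 5 and 16, 3 without mice 13 and 16, and 0 to 3 with 1 mouse left out. The share of all genes called rose with some of these, from 26.5% to 40.5% with weights and 37.0% without mice 13 and 16, but was 26.9% with edgeR, 29.1% with DESeq2 and 20.1% without mice 5 and 16. With equal totals the count stayed at 1, but the gene was Pnpla2 in place of Abhd5. In semaglutide + ketone ester against semaglutide the count was 0, but 1 with equal totals and with DESeq2 (Pnpla2) and with the adipocyte covariate (Plin2), 2 with weights and without mice 13 and 16, and 0 to 2 with 1 mouse left out. The share of all genes there was 20.7% as deposited, 35.4% with equal totals, 23.9% with DESeq2 and 21.7% with the covariate. It was 36.1% with weights, 33.5% without mice 13 and 16, and 9.35% to 33.4% with 1 mouse left out. Across the 3 groups it was 1, but 0 without a filter, with TMM factors, with the covariate and with no variance trend, 2 with DESeq2, 3 with weights and without mice 13 and 16, and 0 to 3 with 1 mouse left out.

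Related genes past the threshold, 9 of 44 in semaglutide against vehicle, numbered 15 with weights and without mice 13 and 16, and 7 to 14 with 1 mouse left out. The share of all genes moved too, from 26.5% to 40.5% with weights, 37.0% without mice 13 and 16, and 19.3% to 37.4% with 1 mouse left out. In semaglutide + ketone ester against semaglutide the related genes numbered 9, but 16 with equal totals, 15 with weights, 4 with only the 2 groups compared, and 1 to 12 with 1 mouse left out (1 without mouse 21 and 3 without mouse 22). Of all genes, 20.7% passed as deposited, 35.4% with equal totals, 36.1% with weights and 9.82% with only the 2 groups. Without mouse 21 it was 10.3% and without mouse 22 it was 9.35%. Against vehicle the related genes numbered 1, but 3 with weights, 5 with only the 2 groups and 3 without mice 13 and 16, and 0 to 1 with 1 mouse left out. Of all genes, 0.366% passed as deposited, 2.58% with weights, 2.18% with only the 2 groups and 1.96% without mice 13 and 16. With 1 mouse left out the share was 0.0325% to 1.07%.

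Signs changed as follows on the log2 scale. For semaglutide against vehicle, Plin2 was at 0.05 with equal totals, 0.11 with edgeR, 0.10 with DESeq2 and 0.05 with the covariate, and Lipe at 0.07, 0.34, 0.33 and 0.12. G0s2 was at -0.15 with weights and -0.09 without mice 13 and 16, where Dgat1 was at -0.05. For semaglutide + ketone ester against semaglutide, Plin3 was at -0.13 and Abhd5 at -0.22 with equal totals, Dgat2 at -0.01 with weights, Plin2 at 0.13 and Lipe at 0.31 without mice 5 and 16, and Plin2 at 0.21, Lipe at 0.08 and Plin3 at -0.01 without mice 13 and 16. Against vehicle, Pnpla2 was at -0.03 with equal totals and Dgat2 at 0.15 without mice 5 and 16. With 1 mouse left out, semaglutide against vehicle ranged from -0.47 to 0.04 for Plin2, -0.57 to 0.18 for Lipe, -0.0022 to 0.26 for Dgat1 and -0.49 to 0.05 for Dgat2. Semaglutide + ketone ester against semaglutide ranged from -0.38 to 0.13 for Plin2, -0.14 to 0.30 for Plin3, -0.04 to 0.05 for Abhd5, -0.44 to 0.31 for Lipe and -0.10 to 0.45 for Dgat2. Against vehicle the ranges were -0.33 to 0.12 for Plin3, -0.05 to 0.16 for Pnpla2 and -0.24 to 0.16 for Dgat2.

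With equal totals, 3351 genes were higher and 985 lower in semaglutide against vehicle (1540 and 1715 as deposited), and 637 higher and 3715 lower in semaglutide + ketone ester against semaglutide (1234 and 1312). Without the variance trend, added after seeing the data like the covariate and the pairs of mice left out, Abhd5 against vehicle had an adjusted p of 0.038 and Pnpla2 of 0.082 (limma). No paired analysis was possible because no groups share mouse numbers. With 3 to 5 mice a group, the intervals of all 4 perilipins, G0s2, Lipe, Dgat1 and Dgat2 leave room for changes in either direction in every comparison.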
